A study of Mus musculus with 12 samples.

Results

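Cytochrome P450 genes of families Cyp1, Cyp2, Cyp3 and Cyp4, which act on foreign compounds and fatty acids, were followed through livers and quadriceps muscles of control and PGC-1beta mutant mice. The genes were chosen by name: every probe set that the array annotation gives a single symbol starting with Cyp1, Cyp2, Cyp3 or Cyp4 and a subfamily letter was taken, without regard to its values. This gave 69 probe sets for 56 of the 18193 genes on the array, 3 genes in family Cyp1, 35 in Cyp2, 5 in Cyp3 and 13 in Cyp4. A further 4 probe sets that list several such symbols were not used.

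The study hybridised total RNA from C57BL/6 mice to Affymetrix Murine 430 2.0 arrays, which read each transcript with probes near its 3′ end. Each of the 4 groups has 3 arrays: control liver, mutant liver, control quadriceps and mutant quadriceps. The mutant mice carry a PGC-1beta mutation that the series title calls hypomorphic, meaning that it lowers function, and the controls are called wild type. PGC-1beta, encoded by Ppargc1b, is a coactivator that helps nuclear receptors and other factors switch on genes of mitochondria and lipid metabolism. Age, sex, diet and feeding state are not stated for these mice.

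P450 enzymes of these families sit in the endoplasmic reticulum, hold a haem group and insert an oxygen atom into a substrate with electrons from P450 reductase. In hepatocytes family Cyp1 clears planar aromatic compounds, Cyp2 and Cyp3 oxidise drugs, steroids and polyunsaturated fatty acids, and Cyp4 hydroxylates the end of fatty acid chains. Many of the genes lie in tandem clusters of close copies, and ligand-sensing receptors such as AHR, CAR, PXR and PPARalpha induce individual members.

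In mutant liver 7 of the 48 P450 genes that were bright enough to test passed the test (14.6%), against 3.35% of all 13326 genes tested, 2.33% higher and 1.03% lower. Cyp2a12, Cyp2c23, Cyp2c50, Cyp2c54, Cyp2d22 and Cyp2d26 fell, by between 1.33-fold and 1.72-fold, and Cyp2r1 rose 1.90-fold. Those 6 falls were among 24 tested P450 genes with a mean liver intensity over 1000 (25%). Of all 1256 genes that bright 7.40% were called lower, a division chosen after the values were seen. All 7 belong to family Cyp2, and none of the 3 Cyp1, 4 Cyp3 or 10 Cyp4 genes tested passed. In muscle none of 22 P450 genes tested passed.

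The transcription start regions of the genes that these results turn on are shown because several of these genes are close copies that lie side by side. RefSeq start regions on GRCm38.p6, from 250 bases before to 50 bases after the start, were at hand for 43 of the 56 genes, and the table had none for Cyp2c23, Cyp2c54 and Cyp2d22, which fell. Cyp2c50 (chr19:40089429-40089728, plus strand), which fell, and Cyp2c37 (chr19:39992174-39992473, plus strand), a gene of the same cluster that did not pass, were 88% identical over the 300 bases. Capitals mark the 36 bases in each that differ in the alignment.

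Cyp2c50: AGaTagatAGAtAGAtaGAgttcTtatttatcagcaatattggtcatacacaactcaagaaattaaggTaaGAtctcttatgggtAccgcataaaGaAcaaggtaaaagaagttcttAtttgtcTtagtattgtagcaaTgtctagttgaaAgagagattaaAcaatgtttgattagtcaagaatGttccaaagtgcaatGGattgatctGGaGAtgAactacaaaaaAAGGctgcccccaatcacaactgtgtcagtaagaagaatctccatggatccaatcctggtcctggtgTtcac

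Cyp2c37: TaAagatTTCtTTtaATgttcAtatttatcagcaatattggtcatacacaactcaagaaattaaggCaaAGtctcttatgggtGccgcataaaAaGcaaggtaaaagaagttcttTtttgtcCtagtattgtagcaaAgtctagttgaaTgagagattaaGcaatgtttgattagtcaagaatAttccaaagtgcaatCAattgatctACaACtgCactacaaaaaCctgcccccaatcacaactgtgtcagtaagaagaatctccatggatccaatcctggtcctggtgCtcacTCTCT

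Cyp2a12 (chr7:27028840-27029139, plus strand) and Cyp2d26 (chr15:82794196-82794495, minus strand) also fell, and Cyp2r1 (chr7:114562923-114563222, minus strand) is the gene that rose. Here capitals mark matches, on either strand, to 5 short motifs: TATAAA of the TATA box, AGGTCA of nuclear receptor elements, CAAAGTCCA of an HNF4 site, GTTAAT of an HNF1 element and TGCGTG of the AHR response element.

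Cyp2a12: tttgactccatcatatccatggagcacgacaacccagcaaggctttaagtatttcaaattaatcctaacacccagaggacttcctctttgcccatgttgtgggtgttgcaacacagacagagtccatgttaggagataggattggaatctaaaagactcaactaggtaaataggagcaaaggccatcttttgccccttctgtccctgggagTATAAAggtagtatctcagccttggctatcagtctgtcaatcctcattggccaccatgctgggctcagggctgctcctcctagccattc

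Cyp2d26: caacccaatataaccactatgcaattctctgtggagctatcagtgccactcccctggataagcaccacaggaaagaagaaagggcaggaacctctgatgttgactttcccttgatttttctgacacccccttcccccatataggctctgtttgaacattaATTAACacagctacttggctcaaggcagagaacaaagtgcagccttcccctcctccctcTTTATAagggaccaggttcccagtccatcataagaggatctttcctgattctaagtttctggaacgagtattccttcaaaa

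Cyp2r1: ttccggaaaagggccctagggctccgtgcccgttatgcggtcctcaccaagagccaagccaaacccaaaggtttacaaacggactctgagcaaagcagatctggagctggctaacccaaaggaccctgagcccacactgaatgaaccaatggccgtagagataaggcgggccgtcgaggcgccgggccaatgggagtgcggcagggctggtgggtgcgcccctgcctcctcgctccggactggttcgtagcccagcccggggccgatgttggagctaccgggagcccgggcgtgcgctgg

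Cyp2a12 holds TATAAA starting 39 bases before the start. Cyp2d26 holds it on the opposite strand 31 bases before the start, and GTTAAT on the opposite strand 90 bases before it. Cyp2r1 holds none of the 5 motifs in this window, and 64.3% of its bases are G or C, against 47.0% in Cyp2a12 and 45.7% in Cyp2d26.

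Across the 43 P450 start regions TATAAA was present in 17 (39.5%), against 13.3% of 17492 regions of protein-coding genes searched the same way. AGGTCA was present in 12 (27.9%, against 14.5% of all) and CAAAGTCCA in 5 (11.6%, against 0.417%). GTTAAT was present in 2 (4.65%, against 6.31%) and TGCGTG in none (against 9.44%). No motif contains another. The median share of G or C was 49.7% in the 43 regions and 56.3% in all regions searched, which the motif shares do not allow for. These matches are descriptions of the letters and not bound sites, and close copies share their letters, so the regions are not independent of one another.

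Values below are intensities after quantile normalisation within a tissue, given for arrays 1, 2 and 3 of a group in that order, then as mean ± SD (n = 3). Differences are mutant minus control on the scale of log2(intensity + 16), with a standard error (SE), and adjusted p-values are limma's, adjusted after Benjamini and Hochberg over every gene tested. Whether the samples of a group are separate mice is not in the labels, so the p-values measure only how these samples vary, which may be technical variation, and 3 arrays a group limit the precision. Ppargc1b itself read 437 ± 137 in control and 367 ± 149 in mutant liver (-0.28, SE 0.32, adjusted p = 0.691).

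The ratio of 3′ to 5′ signal in control probe sets, a sign of RNA quality, was highest in liver mutants 1 and 3, at log2 averages of 1.90 and 1.87, against 0.90 for mutant 2 and 0.50 to 0.97 for the control livers. Of 8 hepatocyte markers tested in liver 1 fell (Tat), 7 lay below 0 and 5 were lower without overlap. Of all genes tested 1.03% fell, 48.8% lay below 0 and 11% were lower without overlap. Among 1256 genes with a mean intensity over 1000 these shares were 7.40%, 55.1% and 27.6%. On values as deposited they were 0.239%, 36.5% and 9.16%. The summed intensity of the hepatocyte markers was 85304 to 88251 in controls and 73108 to 81229 in mutants. Of 14 Kupffer cell and macrophage markers 4 rose (Tyrobp, Lyz2, Ctss and Vsig4), against 2.33% of all genes. Of the 14, 7 were higher without overlap, against 13% of all genes. The sum of the 14 was 2970 to 4043 in controls and 4770 to 5841 in mutants. The part of RNA quality or of cell makeup in the P450 results was not tested beyond the fits given below, and in whole tissue fewer hepatocytes and less RNA per hepatocyte cannot be told apart. Hepatocyte markers summed to at most 143 in muscle, and muscle fibre markers to at most 225 in liver against at least 95373 in muscle, with each tissue normalised on its own.

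Cyp2c50, Cyp2c54 and Cyp2c23 make epoxides from arachidonic and linoleic acid. Cyp2c50 read 9748, 9048 and 7820 in control livers and 5531, 6210 and 6321 in mutant livers. All mutants lay below all controls. The means were 8872 ± 976 and 6020 ± 428, giving -0.55 (SE 0.10, adjusted p = 0.0242 by limma).

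Cyp2c54, next to it in the cluster, read 6955, 6523 and 6298 in controls and 5024, 4910 and 4910 in mutants. The mutants were below every control. Mutants 2 and 3 hold the same value after quantile normalisation, so the small SD is partly set by the normalisation. The means of 6592 ± 334 and 4948 ± 66.0 differed by -0.41 (SE 0.08, adjusted p = 0.0310 by limma).

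Cyp2c23 lies outside that cluster. It read 6493, 6572 and 5644 in controls and 3184, 5151 and 3070 in mutants. Mutants 1 and 3, the arrays with the high 3′ to 5′ ratios, were far below the controls, and mutant 2 was nearer to them without overlap. The means were 6236 ± 515 and 3802 ± 1170, a difference of -0.75 (SE 0.18, adjusted p = 0.0468 by limma). Its probe set is of the class that can also detect related transcripts.

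Cyp2d22, a mouse relative of the human drug-metabolising enzyme CYP2D6, read 1521, 1431 and 1700 in controls and 860, 1068 and 774 in mutants. The groups did not overlap. Its means were 1551 ± 137 and 901 ± 151, giving -0.78 (SE 0.15, adjusted p = 0.0255 by limma). A second probe set of the gene, brighter in control liver (2155 against 1551), gave -0.64. It was outside the threshold in the limma fit of every probe set (adjusted p = 0.0683).

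Cyp2d26, at the other end of the Cyp2d cluster, read 7081, 7594 and 7654 in controls and 4564, 5909 and 4814 in mutants, again without overlap and with mutant 2 the highest mutant. The difference was -0.55 (7443 ± 315 against 5096 ± 715, SE 0.11, adjusted p = 0.0271 by limma). Cyp2a12, a hydroxylase of steroids and bile acids, read 6230, 6375 and 5683 in controls and 4055, 4895 and 4491 in mutants. Every mutant was below every control, and the difference was -0.45 (6096 ± 365 against 4480 ± 420, SE 0.10, adjusted p = 0.0405 by limma).

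Cyp2r1, the microsomal hydroxylase that carries out the liver step of vitamin D activation, was the P450 gene that rose. It read 165, 133 and 182 in controls and 372, 307 and 277 in mutants, with no overlap. The means were 160 ± 24.7 and 319 ± 48.1, giving 0.93 (SE 0.18, adjusted p = 0.0267 by limma).

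**Figure D1:**
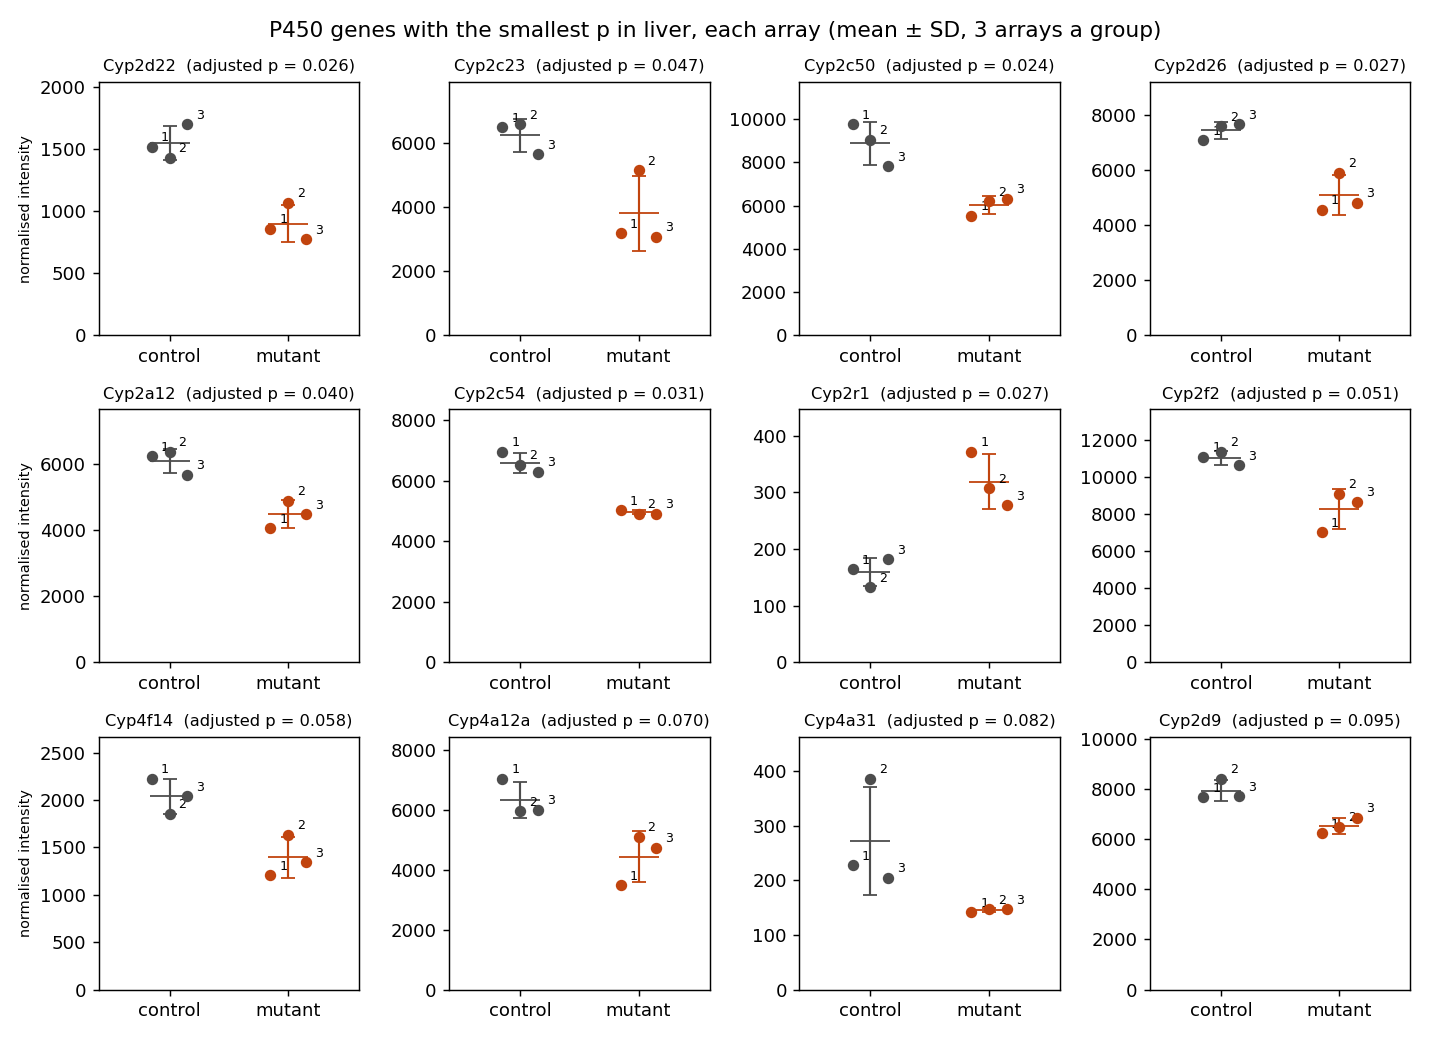
Normalised intensity in each of the 3 control (grey) and 3 mutant (orange) liver arrays, numbered as in the text, for the 12 P450 genes with the smallest p in liver; lines and bars are mean ± SD and every axis starts at 0. The control and mutant points do not overlap in any of the 12 panels, and Cyp2r1 is the panel in which mutants are higher.

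Just outside the threshold were Cyp2f2 and several Cyp4 genes. Cyp2f2, which activates naphthalene and marks periportal hepatocytes, read 11075, 11352 and 10622 in controls and 7018, 9087 and 8663 in mutants, without overlap (-0.42, SE 0.10, adjusted p = 0.0507 by limma). Cyp2d9, a male-biased steroid hydroxylase, gave -0.28 (SE 0.08, adjusted p = 0.0950) and Cyp2j5, an arachidonic acid epoxygenase, -0.28 (SE 0.10, adjusted p = 0.165), both without overlap between groups.

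Family Cyp4 had no gene past the test, yet its median lay lowest of the 4 families. Its median difference over 10 genes was -0.39, against -0.06 over 31 Cyp2 genes, 0.05 over 3 Cyp1 genes, 0.03 over 4 Cyp3 genes and 0.01 over all genes tested. The 3 mutant arrays had Cyp4 medians of -0.60, -0.31 and -0.35 relative to the control mean, and the controls lay between -0.00 and 0.02. Of the 10 genes 6 had an unadjusted p under 0.05, against 19.6% of all genes, and 4 had all mutants below all controls, against 11% of all genes. The families themselves were not tested against one another.

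**Figure D2:**
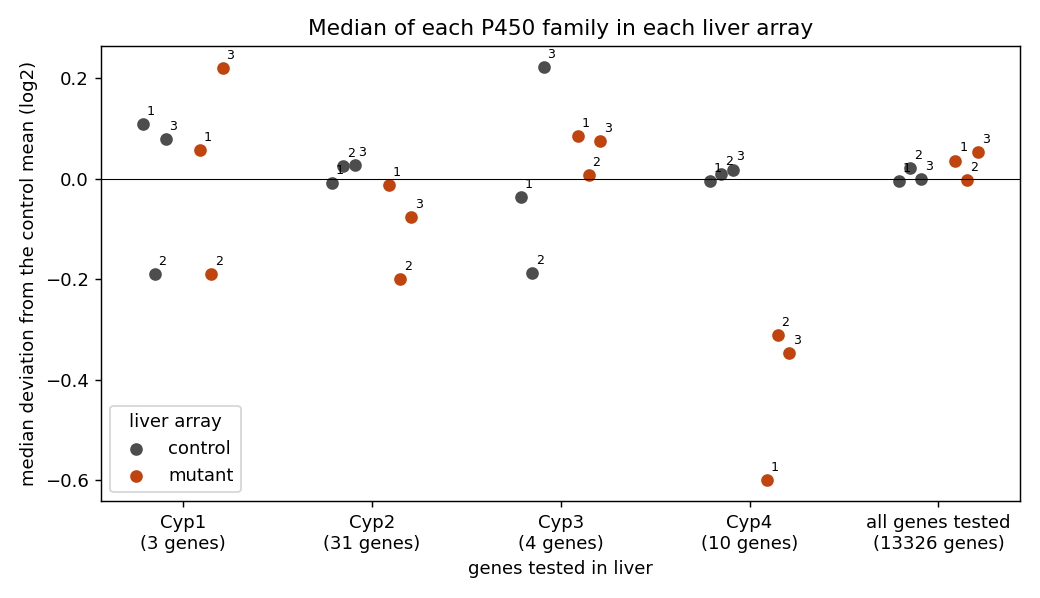
Median deviation from the control mean (log2) over the tested genes of each P450 family and over all 13326 genes tested, for each control (grey) and mutant (orange) liver array. Family Cyp4 is the group in which all 3 mutants, at -0.60, -0.31 and -0.35, lie well below the controls.

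Cyp4f14, which hydroxylates leukotrienes, read 2223, 1857 and 2040 in controls and 1205, 1634 and 1342 in mutants, without overlap (-0.55, SE 0.14, adjusted p = 0.0581 by limma). Cyp4a12a, a male-biased hydroxylase of arachidonic acid, read 7045, 5956 and 6012 in controls and 3497, 5105 and 4746 in mutants (-0.52, SE 0.14, adjusted p = 0.0700 by limma). In both genes mutant 1 was lowest and mutant 2 highest among the mutants.

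Cyp4a31 and Cyp4a14 belong to the Cyp4a hydroxylases that PPARalpha induces. Cyp4a31 read 228, 386 and 205 in controls and a narrow 142, 148 and 148 in mutants (-0.79, SE 0.22, adjusted p = 0.0819 by limma). Cyp4a14 read 988, 1158 and 4164 in controls and 717, 1106 and 301 in mutants, so that control 3 stood far above and the groups overlapped (-1.41, SE 0.54, adjusted p = 0.179 by limma). Without control 3 the difference was -0.77 (adjusted p = 0.394). Cyp4v3, a fatty acid hydroxylase, gave -0.39 (SE 0.17, adjusted p = 0.232) and a second probe set gave -0.63.

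The same control array stood apart in Cyp2c39, a retinoic acid hydroxylase. It read 66.8, 83.3 and 716 in controls and 802, 622 and 441 in mutants, so control 3 lay among the mutants (1.77, SE 0.66, adjusted p = 0.172 by limma). Without control 3 the difference was 2.78 and passed (adjusted p = 0.0165 by limma).

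Several of the brightest liver P450 genes had differences near 0 with narrow intervals. Cyp2e1, which oxidises ethanol and paracetamol, differed by -0.03 (12268 ± 99.1 against 12004 ± 376, 95% interval -0.18 to 0.12). Cyp3a11, the main PXR-inducible drug oxidase, differed by 0.07 (11093 ± 408 against 11669 ± 495, 95% interval -0.09 to 0.24). Cyp1a2, the AHR-inducible enzyme that clears caffeine, differed by -0.12 (10674 ± 623 against 9790 ± 269, 95% interval -0.29 to 0.05). In these 3 genes the groups overlapped. The highest deposited values of the liver arrays were 15374 to 18727, and whether signals this high were compressed was not tested.

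Cyp2c29, a CAR-responsive epoxygenase, gave 0.13 (95% interval -0.08 to 0.35) and Cyp2b10, the classical CAR target, 0.29 with a wide interval of -0.39 to 0.97. Mutant 3, at 507, was the high Cyp2b10 array, and the other 5 arrays ran from 180 to 246. The brightest genes of the remaining subfamilies did not pass either: Cyp1b1 differed by 0.05, Cyp4b1 by 0.07, Cyp2g1 by 0.35, Cyp2u1 by 0.44 and Cyp2s1 by -0.88. Cyp2d40, at 0.39, and Cyp2j9, at 0.34, were also among the 6 highest differences. Cyp2s1 was lowest in mutant 1 (5.65, against 57.6 and 50.6 in mutants 2 and 3).

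**Figure D3:**
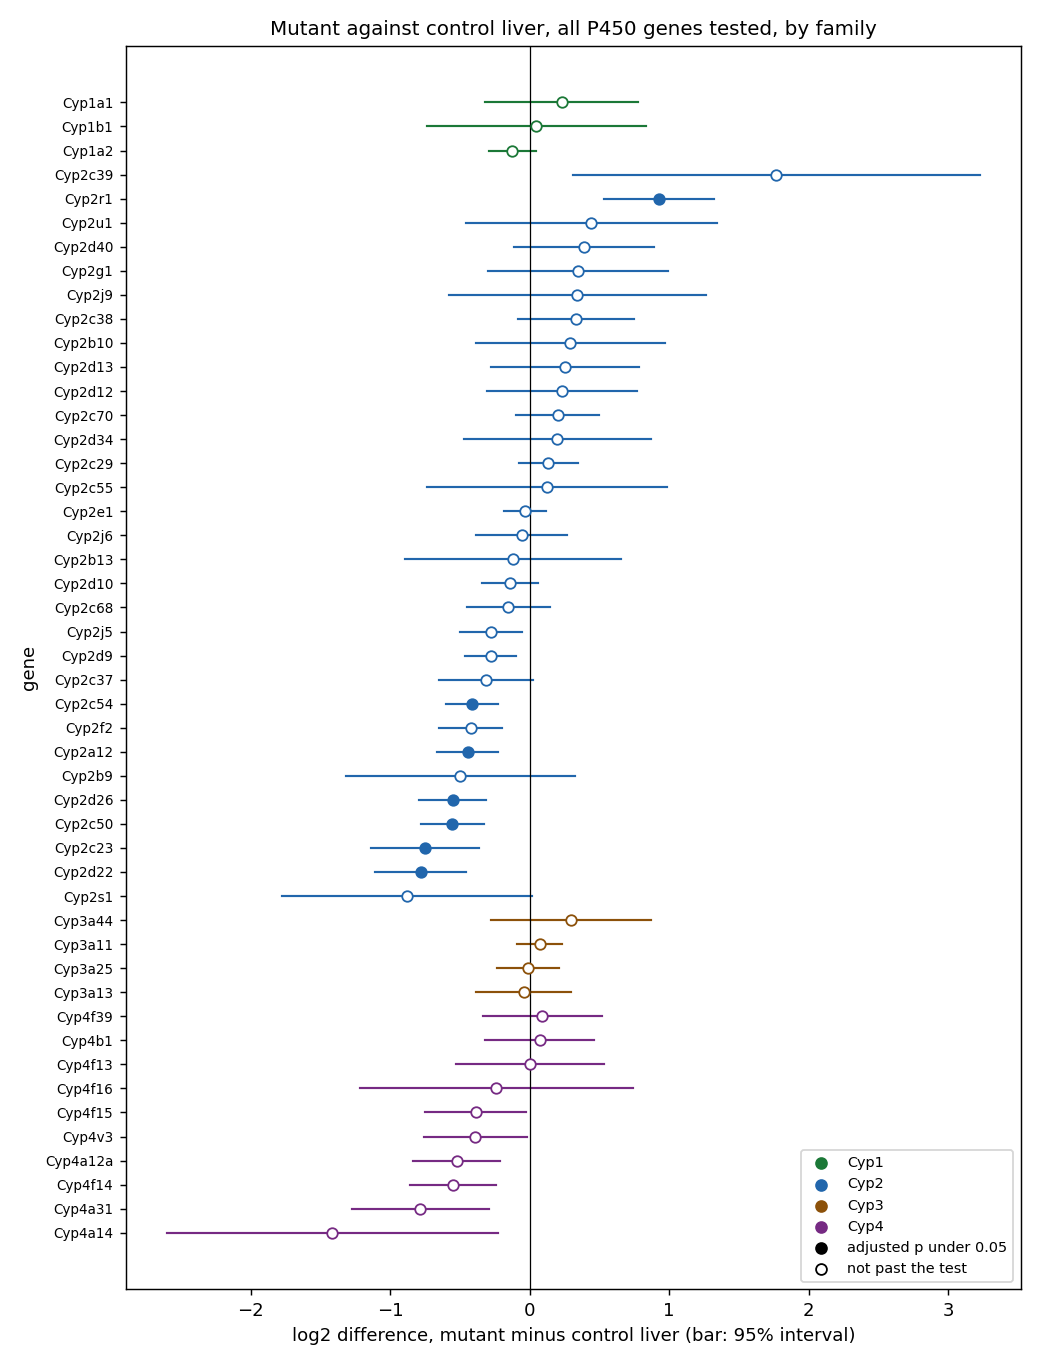
Log2 difference of mutant minus control liver with its 95% interval for the 48 P450 genes tested, coloured by family; filled points have an adjusted p under 0.05. The filled points are all in family Cyp2, 6 to the left of 0 and Cyp2r1 to the right, and most of the Cyp4 points lie to the left without passing.

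Over all 48 genes 14 had every mutant below every control and 1 had every mutant above, against 11% and 13% of all genes tested (24% in either direction). In 27 of the 48 the difference was below 0, against 48.8% of all genes. The 14 were Cyp2a12, Cyp2c23, Cyp2c50, Cyp2c54, Cyp2d22, Cyp2d26, Cyp2d9, Cyp2f2, Cyp2j5, Cyp2s1, Cyp4a12a, Cyp4a31, Cyp4f14 and Cyp4f15. All 14 stayed below 0 under each alternative tried, which their choice largely fixed. With no overlap, a changed offset, filter or variance trend cannot turn the sign, and leaving out arrays hardly can. The other members ranged from -0.50 to 0.44 in difference, leaving out Cyp2c39, Cyp4a14 and Cyp2r1.

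Bright and dim P450 genes differed in how many lay below 0. With a division at a mean intensity of 1000, chosen after the values were seen, 21 of 24 bright P450 genes were below 0 and 12 had no overlap, with a median of -0.35. Of all 1256 bright genes tested 55.1% were below 0 and 27.6% lower without overlap, with a median of -0.04. Among these 1256, 93 were called lower (7.40%) and 115 higher, against 6 lower (25%) and 0 higher among the bright P450 genes. Of the 24 dimmer P450 genes 6 were below 0, among them Cyp2s1 at -0.88 and Cyp4a31 at -0.79, which lay lower without overlap. They had a median of 0.21, against 0.02 for all dimmer genes, and Cyp2r1 was the dim gene past the test. On the values as deposited, without quantile normalisation, the bright P450 median was -0.11 and that of all bright genes 0.14, so the level of the bright genes depended on the scaling.

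The calls rested on the scaling and on single arrays. On the values as deposited none of the 7 genes passed, though 279 genes of the array were called higher and 18 lower, with the 6 falls between -0.66 and -0.14, and with arrays centred on their medians only Cyp2r1 passed. Without control 2 or without mutant 1 no P450 gene passed, and no gene of the whole array did either. Without control 1 no P450 gene passed, while 25 genes of the array were called higher and 2 lower; without mutant 3 none passed either, with 41 higher and 2 lower. Without control 3 the genes past the test were Cyp2c50, 1 of the 7, and Cyp2c39 (30 higher and 6 lower over all genes). Without mutant 2 all 7 passed, together with Cyp2f2, Cyp4a12a and Cyp4f14 (389 higher and 345 lower over all genes). Without mutants 1 and 3, or with that 3′ to 5′ ratio in the fit, no P450 gene passed, with 0 and 2 calls over all genes, and the 6 falls ran from -0.54 to -0.28 and from -0.56 to -0.29. Cyp1a2, Cyp2e1, Cyp2c68, Cyp2d10, Cyp3a13, Cyp3a25 and Cyp4f13 changed sign between scalings.

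Neighbouring copies had differences on both sides of 0. Clusters are counted here over the protein-coding members on the array, so they can be larger in the genome. In the Cyp2c cluster of 10 genes Cyp2c37, Cyp2c54 and Cyp2c50 stand next to each other, at -0.32, -0.41 and -0.55, and Cyp2c37 did not pass (4164, 4581 and 3370 in controls, 3134, 2720 and 3897 in mutants, which overlap). Cyp2c29, Cyp2c39 and Cyp2c38, next to each other on the other side, were at 0.13, 1.77 and 0.33, and Cyp2c70, which makes the muricholic bile acids of mice, at 0.20. Cyp2c38 and Cyp2c39 were 82% identical in their start regions.

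Cyp2d13, annotated as a transcribed pseudogene, was left out of the order (0.26 in liver, not past the test). In the Cyp2d cluster of 7 such protein-coding genes the end members Cyp2d22 and Cyp2d26 fell. Between them Cyp2d10 and Cyp2d9 were at -0.14 and -0.28, with start regions 84% identical, and Cyp2d12, Cyp2d34 and Cyp2d40 at 0.23, 0.20 and 0.39. Differences between neighbours were not tested. Close copies can share probe sequence, so a signal may hold more than 1 of them.

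**Figure D4:**
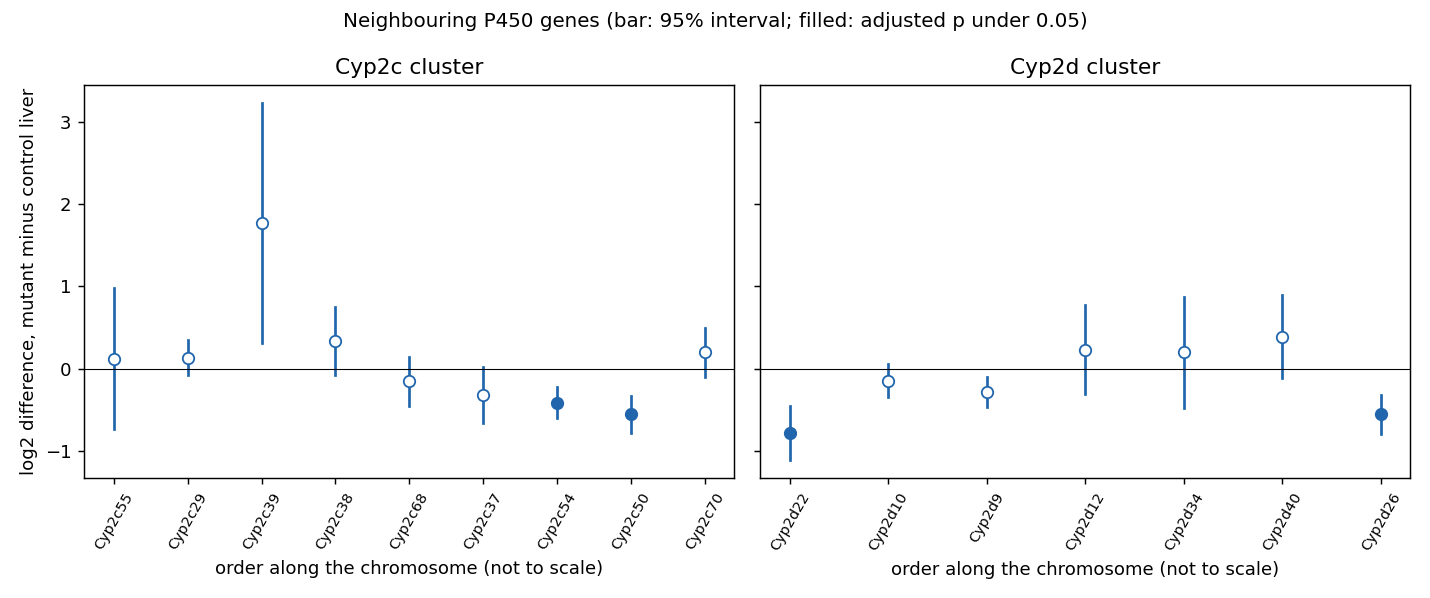
Log2 difference of mutant minus control liver with its 95% interval for the tested genes of the Cyp2c and Cyp2d clusters, in their order along the chromosome and not to scale; filled points have an adjusted p under 0.05. Cyp2c54 and Cyp2c50 are adjacent filled points, and in the Cyp2d cluster the filled points are at the ends.

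The partners and regulators of P450 enzymes were read from lists of known genes. Over all genes tested 2.33% rose, 1.03% fell and 48.8% lay below 0, which is the measure for the counts that follow. The lists were not matched for intensity. Among the 1256 bright genes 7.40% fell and 55.1% lay below 0. On values as deposited those shares were 0.239% and 36.5%. The calls in these lists were lost, like every other liver call, without control 2, without mutant 1 and without the variance trend. Of 4 redox partners tested none passed in liver, and 1 had an unadjusted p under 0.05. Cyb5r3, which reduces cytochrome b5, gave -0.33 (adjusted p = 0.0939) and the cytochrome Cyb5a 0.15 (adjusted p = 0.308). Of 11 genes of haem synthesis and breakdown 1 rose: Blvra, which reduces biliverdin, read 240, 293 and 208 in controls and 522, 421 and 430 in mutants (0.86, SE 0.17, adjusted p = 0.0303 by limma). Blvrb, a second biliverdin reductase, was just outside (0.72, adjusted p = 0.0511). The list had 8 genes above 0 and a median of 0.19.

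Of 20 regulators of P450 genes tested 1 fell. Cebpa, a hepatocyte transcription factor, read 4701, 5096 and 5331 in controls and 3377, 4028 and 3456 in mutants, with no overlap (-0.48, SE 0.10, adjusted p = 0.0374 by limma). Rxra, the partner of CAR, PXR and PPARalpha, was next (1671 ± 118 against 1040 ± 281, -0.71, adjusted p = 0.0558), again with mutant 2 nearest to the controls. The list had 14 genes below 0 and a median of -0.23.

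Targets of the sensing receptors were read the same way. Of 12 CAR and PXR targets 1 fell, the canalicular exporter Abcc2 (869 ± 52.2 against 465 ± 57.7, -0.88, SE 0.14, adjusted p = 0.0180 by limma). The exporter Abcc3 was outside the threshold (-0.85, adjusted p = 0.0554), and the 5 P450 genes on that list, which are members here too, did not pass. None of 5 AHR targets passed, none with an unadjusted p under 0.05, and their median was 0.17. Cyp1a1, Cyp1a2 and Cyp1b1, the genes of family Cyp1 above, are among those 5. Both PPARalpha-responsive genes tested are the Cyp4a genes above.

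Of 15 P450 genes of other families 1 fell, Cyp27a1 of bile acid synthesis (4696 ± 323 against 3276 ± 238, -0.52, adjusted p = 0.0275 by limma), and the next smallest p was that of Cyp20a1 (0.53, adjusted p = 0.100). Of 19 pericentral hepatocyte genes Cyp2c50, Cyp2c54 and Cyp27a1 fell and Lect2 rose (0.61, adjusted p = 0.0354), and 16 lay below 0. Of 14 periportal genes none passed, 5 had an unadjusted p under 0.05 and 12 lay below 0, with Cyp2f2 and then Pck1 (-0.48, adjusted p = 0.0614) nearest to the threshold. The medians of the 2 lists were -0.26 and -0.21. Cyp2e1, Cyp1a2, Cyp2c29, Cyp2c37, Cyp2c50 and Cyp2c54 on the pericentral list and Cyp2f2 on the periportal list are members here too.

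Of 8 male-biased genes none passed and 6 lay below 0, with Cyp4a12a and Hsd3b5 (0.37, adjusted p = 0.0835) nearest to the threshold, and 4 had an unadjusted p under 0.05. Of 6 female-biased genes none passed, none with an unadjusted p under 0.05, and the smallest p-values were those of Cux2 (0.35, adjusted p = 0.392) and Acot3 (-0.65, adjusted p = 0.416). Cyp4a12a, Cyp2d9, Cyp2b9, Cyp2b13 and Cyp3a44 are on these lists and among the P450 genes too. In muscle no gene of any of these lists passed.

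In control animals most of the P450 genes were higher in liver. With all 12 arrays normalised together, 40 of 49 genes tested were higher in control liver and 1 higher in control muscle (54.3% of all genes passed, 26% higher in liver and 28.4% higher in muscle). The median difference was 2.83, against -0.00 for all genes, and 18 genes differed by more than 6 on the log2 scale, led by Cyp1a2 at 8.49. Those 18 were 13 Cyp2, 2 Cyp3, 2 Cyp4 and 1 Cyp1 gene. For genes whose muscle signal was near the offset of 16 the difference understates the fold.

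Cyp4f39, which makes acylceramides in skin, was the gene higher in muscle (-0.84, SE 0.20, adjusted p = 0.00174 by limma). With each tissue normalised on its own it read 56.2 ± 5.99 in control liver and 77.0 ± 20.7 in control muscle. Cyp1b1, an extrahepatic hydroxylase of oestrogens, did not pass (-0.61, adjusted p = 0.142), and neither did Cyp4x1 at -0.61. Cyp2r1 was 2.63 higher in liver (adjusted p = 4.29e-08).

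**Figure D5:**
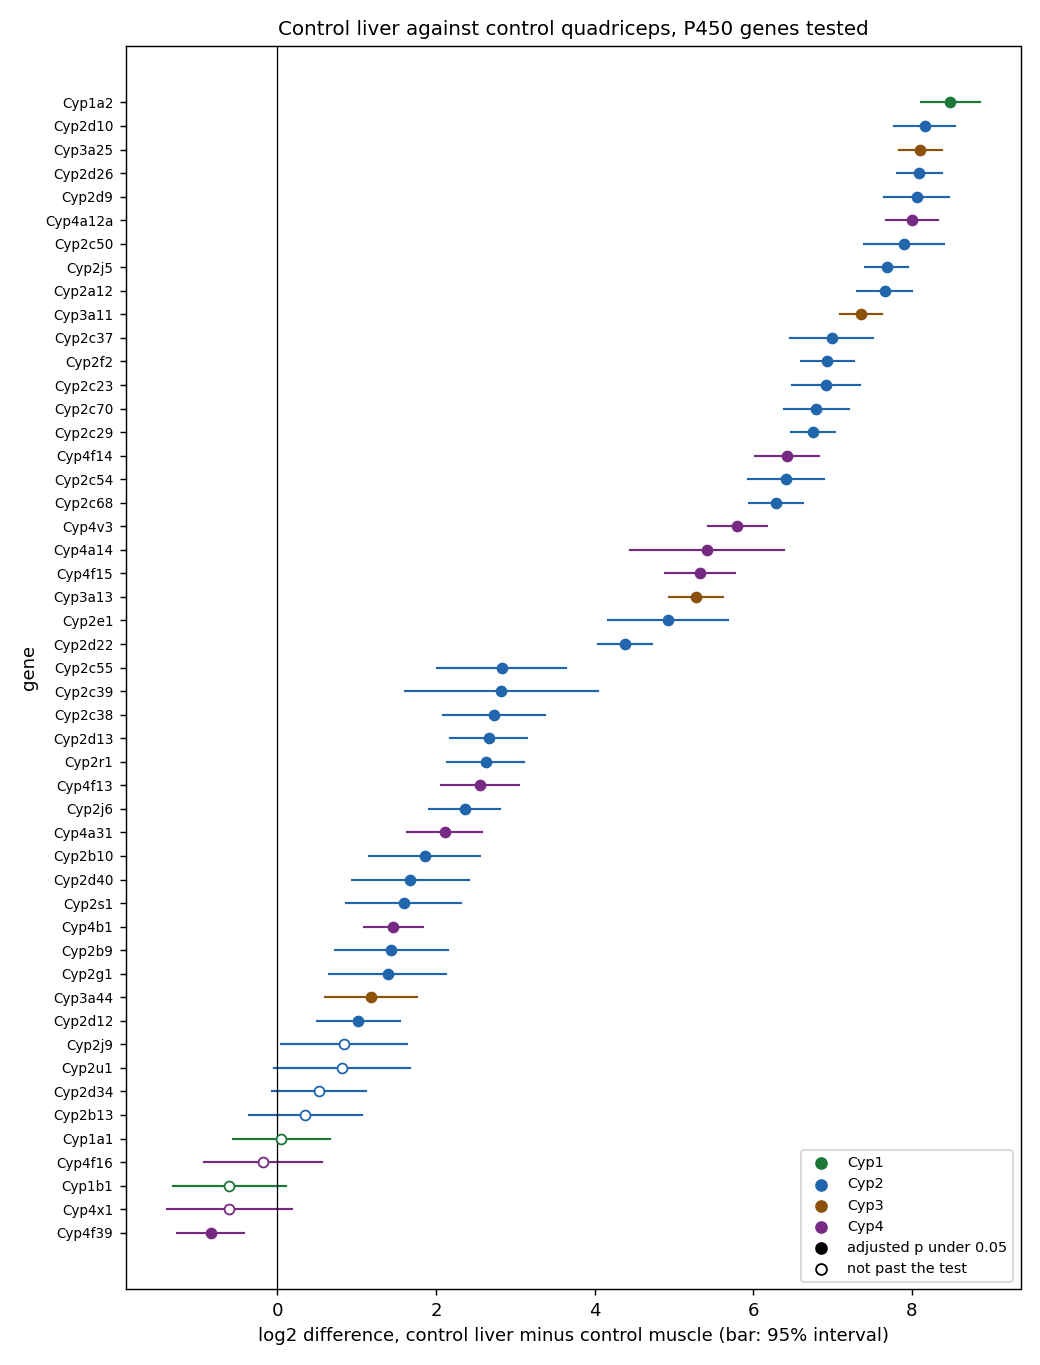
Log2 difference of control liver minus control quadriceps with its 95% interval for the 49 P450 genes tested, coloured by family; filled points have an adjusted p under 0.05. The points run from Cyp1a2 at 8.49 down to Cyp4f39 at -0.84, the filled point to the left of 0.

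In mutant muscle no P450 gene passed the test. Of 22 genes tested 0 passed by limma, against 0.0152% of all 13131 genes, and 1 had an unadjusted p under 0.05, against 4.26%. Differences ran from -0.57 to 0.53 with a median of -0.03. No muscle array exceeded 97.4 for any member other than Cyp2e1, so these are dim signals.

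Cyp2e1 was the bright member in muscle, at 177, 539 and 172 in controls and 225, 386 and 558 in mutants, with the groups fully overlapping (0.49, SE 0.41, adjusted p = 0.995 by limma). Cyp2d13, annotated as a transcribed pseudogene, had the smallest p. It read 23.0, 13.4 and 15.9 in controls and 25.9, 32.5 and 37.8 in mutants, without overlap (0.53, SE 0.21, adjusted p = 0.995 by limma). Cyp2c54, Cyp2c29, Cyp2j6 and Cyp4f13 were lower without overlap and Cyp2d22 higher, with adjusted p of 0.995 each. In all 2 of 22 genes were higher and 4 lower without overlap, against 4.33% and 5.22% of all genes (9.54% together).

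The mutant effect differed between tissues in 1 of 21 genes tested in both (1.42% of all 11841 genes passed, 0.262% in the direction of a lower effect in liver). In Cyp2d22 the liver effect of -0.78 stood against 0.37 in muscle, where it read 25.9, 34.6 and 37.9 in controls and 39.9, 55.5 and 46.2 in mutants. The gene's other probe set gave 0.24 in muscle, with overlapping groups. For the probe set used, the difference of the effects was -1.16 (SE 0.22, adjusted p = 0.0274 by limma's interaction term). It did not pass with an offset of 64, on values as deposited, with median centring, without mutants 1 and 3 or without any 1 muscle array. Without liver control 3, liver mutant 1 or liver mutant 3 it did not pass either. For Cyp2c54 the effects were -0.41 in liver and -0.57 in muscle, and their difference did not pass (0.15, SE 0.29, adjusted p = 0.850).

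The 8 members not tested in liver, among them Cyp2b19, Cyp2c65, Cyp2j11, Cyp2j13, Cyp3a16, Cyp4f18 and Cyp4f41-ps, read at most 56.8 on any liver array. Cyp4x1, the remaining one, was tested in muscle, so 7 members were tested in neither tissue. For 11 members with more than 1 probe set the brightest was used. In Cyp2j6 the other set gave 0.54 against -0.06, and in Cyp2b10 the 3 sets gave 0.29, 0.29 and 0.60.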

How the data were processed

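The authors deposited linear intensity values per probe set, 1 column for each array. How probes were summarised and arrays scaled was not found (not given in the sources used here); d-Chip is named for clustering only, per the labels' series design text. Of 45101 probe sets 64 controls were left out, and 34945 carried 1 symbol in the platform annotation. Array medians in liver differed by 0.56 (log2), above the bound of 0.2, so arrays were quantile normalised within each tissue, and over all 12 arrays for the comparison of tissues. The probe set with the highest mean log2 value over all 12 arrays stood for a gene. Tests used log2(value + 16), where the offset understates changes of dim genes. Genes whose mean exceeded the array-wide 40th percentile were tested with limma 3.58.1 in R 4.3.3 (variance trend), adjusted by Benjamini-Hochberg over all genes at a threshold of 0.05, and the difference between tissues as an interaction over 12 arrays. Arrays of a tissue correlated at 0.943 to 0.960 in liver and 0.961 to 0.971 in muscle, with no duplicate. The fits were tested on simulated data.

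The members, lists and tests were chosen with earlier results of these data known. Genes were named where they passed a test, were among the 12 smallest p-values or the 6 largest rises or falls in liver, led a subfamily in control liver, or were among the 6 smallest p-values or the 6 brightest in muscle; from each list, members past the test and the 2 smallest p-values were named. Other members were named after their values were seen, to show clusters, zones or groups that did not overlap. Start regions came from RefSeq (GRCm38.p6); where the table held several for a gene (4 members), the one farthest upstream was used. Alignments used Biopython 1.88, and figures matplotlib 3.10.9.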

Additional observations from a re-analysis of the deposited data

Results flagged for a closer look

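Cyp2d22 stood out because its mutant effect differed between the tissues in a test of the difference itself. The liver effect minus the muscle effect was -1.16 on the log2 scale (SE 0.22, adjusted p = 0.0274 by limma). In the probe set used, all 3 mutant livers were below the controls and all 3 mutant muscles above them, although the muscle signal, at 25.9 to 55.5, was dim. The gene's other probe set gave -0.64 in liver without overlap, and 0.24 in muscle, where its groups overlapped. The difference between tissues passed in 9 of 24 alternative settings.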

How the results depend on the processing

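The calls depended on the processing. Of the count of 7 P450 genes past the test in liver, 2 were left with no filter on low values, 1 with arrays centred on their medians, and 0 on values as deposited, where 279 genes of the array rose and 18 fell. It was also 0 with no variance trend and without mutants 1 and 3, where no gene of the array passed, and with the 3′ to 5′ ratio in the fit as covariate, where 2 did; leaving out 1 array gave 0 to 10. With the replicate block the count was 0, with 10 genes of the array called higher and 1 lower against 310 and 137 without it, and all 6 falls had adjusted p-values of 0.0573 to 0.0795; deviations of same-numbered samples correlated at -0.0088, -0.12 and -0.03 in liver and at 0.04, 0.09 and 0.20 in muscle, not above 0.1 in every pair, so the numbers were not taken as a pairing. The block left the P450 counts in muscle, for the difference and between control tissues at 0, 1 and 41. The 1 gene of the difference between tissues became 0 with an offset of 64, on values as deposited, with median centring, with no variance trend, with the covariate and without mutants 1 and 3; leaving out 1 array gave 0 to 1. The median over all P450 genes in liver, -0.05, was 0.025 without a filter, -0.12 with a filter at the 60th percentile, 0.044 as deposited, 0.051 centred, -0.14 with the covariate, -0.19 without mutants 1 and 3 and -0.11 to -0.023 with 1 array left out. Under the same settings that of Cyp2, -0.06, was 0.057, -0.14, 0.094, 0.081, -0.14 and -0.19. That of Cyp1, 0.05, was -0.16 with the covariate, -0.18 without mutants 1 and 3 and -0.16 to 0.17 with 1 array left out. That of Cyp3, 0.03, was 0.23 as deposited and 0.22 centred. That of Cyp4, -0.39, was -0.24 without a filter, -0.22 as deposited, -0.24 centred, -0.51 with the mean of all probe sets, -0.17 with the covariate and -0.54 to -0.35 with 1 array left out, below 0 in each. Of the 6 falls 3 passed in the fit of all 12 arrays, where limma's adjusted p-values for them ran up to 0.254. In that fit 649 genes of the array were called higher and 345 lower. With the mean of all probe sets 3 of the 6 passed, and with every probe set on its own 4 did. All 6 falls kept their direction under each alternative, but their groups did not overlap, so most of the alternatives could not turn it. Without mutants 1 and 3 a single mutant array was left, assumed to vary like the controls. The count between control tissues ran from 39 to 43 and that in muscle was 0 throughout. Dim genes near the offset limit what muscle can show, and 3 arrays a group limit the precision.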
